A study of Homo sapiens with 42 samples.

Results

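Chromatin accessibility after HGF was compared with the 0 h control in 10 of the 42 ATAC-seq libraries of MCF10A cells, an established line of non-tumorigenic human mammary epithelial cells. In ATAC-seq a transposase cuts DNA that is not packed in nucleosomes, and the cut fragments are sequenced and gathered into peaks. The 10 libraries were chosen by their labels and are 4 of the 0 h control (CTRL, replicates A to D), 3 of HGF at 24 h and 3 of HGF at 48 h (replicates A to C each). All cells first spent 18 h in experimental medium without growth factor. CTRL cells were collected at that point, at a ligand dose of 0 ng/ml, with PBS as the vehicle. The HGF cells then received 40 ng/ml HGF and were collected 24 h or 48 h later. HGF and the added time in culture changed together in this comparison, so the 2 cannot be told apart in it. The files name the replicates by letter, and where these share a culture or a preparation the p-values measure only the spread between libraries.

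Hepatocyte growth factor is a ligand made mostly by stromal cells that acts on epithelial cells through the receptor tyrosine kinase MET. It is secreted as an inactive precursor, cleaved by proteases such as matriptase (ST14) and HGFAC, and held in check by the inhibitors SPINT1 and SPINT2. Active MET recruits the adaptors GAB1, GRB2 and SHC1 and signals through the MAP kinase, PI3 kinase and STAT3 pathways. The ligand is known for scattering epithelial cells and for driving motility and branching. MAP kinase signalling acts on AP-1, a dimer of FOS and JUN family proteins that binds accessible enhancers together with TEAD and RUNX factors in epithelial cells.

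The sequences below are 201 bases centred on the strongest summit of 5 of the sites described below. PLXNA2, NOS1AP and SESN3 are the nearest protein-coding starts of 3 sites whose peaks were lower after HGF, IL20RA is that of a site whose peak was higher, and COL8A1 that of a site with a peak in the HGF 24 h libraries alone among the 10. The 3 lower sites were picked among those that held the AP-1 consensus, so they do not stand for the lower sites as a set. Lower sites of similar adjusted p nearest to ZNF658, PI15 and OR10J4 held no AP-1 match. Libraries of other conditions outside the 10 listed the COL8A1 peak too. Each sequence is the plus strand of hg38. Capitals mark the AP-1 consensus (TGANTCA, which reads the same on both strands apart from its middle base) and the TEAD consensus (GGAATG, searched on both strands).
PLXNA2, lower after HGF, chr1:208604426-208604626: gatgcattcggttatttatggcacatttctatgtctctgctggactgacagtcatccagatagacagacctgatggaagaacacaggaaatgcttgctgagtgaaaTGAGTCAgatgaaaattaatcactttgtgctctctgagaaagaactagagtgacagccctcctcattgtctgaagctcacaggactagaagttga
NOS1AP, lower after HGF, chr1:162055254-162055454: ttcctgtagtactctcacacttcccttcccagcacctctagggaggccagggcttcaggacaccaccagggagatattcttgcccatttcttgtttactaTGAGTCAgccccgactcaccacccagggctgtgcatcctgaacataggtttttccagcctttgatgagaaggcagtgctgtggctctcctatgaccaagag
SESN3, lower after HGF, chr11:95289470-95289670: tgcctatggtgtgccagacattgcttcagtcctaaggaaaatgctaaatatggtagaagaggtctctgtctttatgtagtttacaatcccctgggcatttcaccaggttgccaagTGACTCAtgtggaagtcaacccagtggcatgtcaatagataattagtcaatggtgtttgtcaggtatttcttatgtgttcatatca
IL20RA, higher after HGF, chr6:137037008-137037208: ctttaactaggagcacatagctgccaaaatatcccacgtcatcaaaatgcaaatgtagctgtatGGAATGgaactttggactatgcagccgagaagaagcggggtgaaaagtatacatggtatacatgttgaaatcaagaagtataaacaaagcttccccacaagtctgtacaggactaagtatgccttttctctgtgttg
COL8A1, peak at 24 h of HGF only, chr3:99633976-99634176: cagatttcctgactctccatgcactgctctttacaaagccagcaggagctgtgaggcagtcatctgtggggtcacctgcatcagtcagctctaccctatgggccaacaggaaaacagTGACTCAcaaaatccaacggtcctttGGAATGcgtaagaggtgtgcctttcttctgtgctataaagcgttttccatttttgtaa

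The AP-1 letters lay 0 to 17 bp from the summit in the 4 sequences that held them. IL20RA held a TEAD match 36 bp before its summit and COL8A1 one 43 bp after it. Within 100 bp of the strongest summit, 39.3% of the 104259 sites tested held the AP-1 consensus, 15.9% the TEAD consensus and 16.5% the RUNX consensus TGTGGT. A match is a description of the letters and does not show that a factor bound there.

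HGF libraries listed fewer peaks than CTRL libraries. CTRL replicates A to D listed 108460, 110987, 106515 and 111312 peaks on the primary chromosomes. HGF at 24 h listed 99922, 85344 and 38177 in replicates A to C, and HGF at 48 h listed 85386, 90552 and 33227. All 6 HGF libraries lay below the lowest CTRL library, and both replicates C stood far below the other HGF libraries. The ratio of the geometric means, HGF over CTRL, was 0.605 (difference of −0.218 in mean log10 peak number, two-sided exact permutation p = 0.0905, adjusted p = 0.175 over 5 library measures). The p reached 0.0286, the smallest that 3 against 4 libraries allow in an exact permutation test, at each time alone. Without both replicates C the difference was −0.0838 (exact permutation p = 0.0286, again the smallest possible), and HGF 48 h against HGF 24 h gave an exact permutation p of 0.700, where 3 against 3 libraries cannot go below 0.100.

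**Figure D1:**
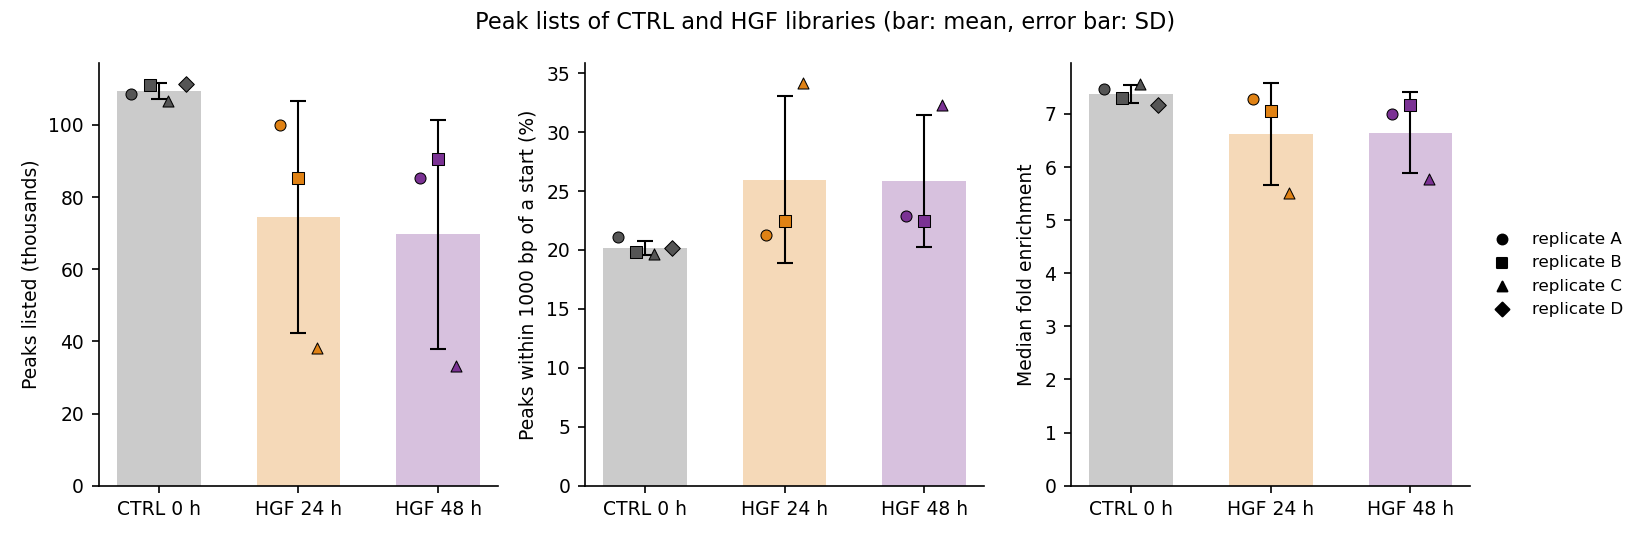
Number of listed peaks (axis in units of 1000), share of peaks within 1000 bp of a protein-coding start in percent, and median fold enrichment in each of the 10 libraries (points, shaped by replicate) with the group mean (bars) and SD (error bars), for CTRL 0 h, HGF 24 h and HGF 48 h. The 6 HGF libraries lie below all 4 CTRL libraries in peak number and above them in the share near starts, and both replicates C stand apart from the other HGF libraries.

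A larger share of the listed peaks lay near gene starts in each HGF library, which did not pass the test over both times. The summit lay no more than 1000 bp from a protein-coding start for 20.2% ± 0.630 of peaks in CTRL (SD, n = 4) and for 25.9% ± 5.71 in HGF (n = 6). In replicates A to C it was 21.3%, 22.5% and 34.2% after 24 h of HGF and 22.9%, 22.4% and 32.3% after 48 h, and all 6 exceeded the highest CTRL library. The difference of 5.74 percentage points had an exact permutation p of 0.0952 (adjusted p = 0.175), and it was 2.09 points without the replicates C (p = 0.0286, exact permutation test). Median fold enrichment, the height of a peak over its local background, was 7.38 ± 0.175 in CTRL, 6.62 ± 0.962 at 24 h and 6.64 ± 0.764 at 48 h, with 5.51 and 5.77 in the replicates C. Background coverage, computed back from fold enrichment and −log10 p, averaged 1.14 in CTRL and 1.11 in HGF (exact permutation p = 0.557). The files hold no read totals, so sequencing depth is unknown here, and the part of library quality in the lower peak number was not tested.

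Promoters of the mammary epithelial markers were open in both groups. Of 11 markers, 9 or 10 had a promoter peak in each CTRL library and 6 to 10 in each HGF library, with KRT5, KRT8, KRT18, CDH1, ITGB4 and LAMB3 in all 10. No library had a promoter peak at TP63, a factor of basal mammary cells. Of the fibroblast markers 0 to 2 of 8 had one, of the immune markers 1 of 6 (CD14), of the endothelial markers 0 or 1 of 5 (KDR) and of the adipocyte markers 0 of 4. PTPRC, PECAM1, PDGFRA and ADIPOQ had none in any library.

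Peak height could be compared at the 21627 sites with a peak in all 10 libraries. Log2 fold enrichment was quantile normalised over the 10 libraries and tested in limma with Benjamini-Hochberg adjustment over these sites. Averaged over both times, 0 sites were higher and 0 lower at an adjusted p below 0.01 (0% each), while 3134 had an unadjusted p below 0.05. At an adjusted p below 0.05, 6 sites were higher (0.0277%) and 21 lower (0.0971%). At 48 h alone 3 sites were lower (0.0139%) and 0 higher at 0.01, and 32 were lower (0.148%) and 7 higher (0.0324%) at 0.05. At 24 h alone 0 passed 0.01, and 1 was lower (0.00462%) at 0.05 (2112 with an unadjusted p below 0.05). The direct comparison of 48 h with 24 h gave 0 sites at either threshold (lowest adjusted p = 0.979 in limma, 992 sites with an unadjusted p below 0.05). The 27 sites named in the next paragraphs were taken at the looser threshold of 0.05, which was chosen after their values were seen. Without both replicates C, where 50360 sites had a peak in all 8 remaining libraries, each of the 27 kept its direction, with an adjusted p of 0.00821 to 0.0487 in limma, where the 3 sites of the 48 h comparison are given at 48 h. Those 8 libraries are among the 10 by which the 27 sites were chosen, so this is not an independent test.

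The sites nearest to PLXNA2 and ZNF658 shared the lowest adjusted p among the lower sites over both times. The PLXNA2 site lies between genes at chr1:208604336-208605034, 360142 bp from the start of the gene, which encodes a receptor for semaphorins. Its normalised log2 fold enrichment was 3.49, 3.69, 3.77 and 3.72 in CTRL A to D, 3.14, 2.90 and 2.81 at 24 h and 2.55, 2.90 and 2.64 at 48 h of HGF. The groups did not overlap, and the log2 difference was −0.84 ± 0.13 (SE, adjusted p = 0.0202 in limma). The AP-1 sequence printed above for this site starts 6 bp from the summit. A peak was listed there in 7 of 8 EGF libraries and in 1 of 6 PBS libraries collected at 24 h and 48 h.

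GSN, ITGB3 and KLF6 were the nearest starts of 3 further lower sites. An intronic site of GSN, which encodes the actin-severing protein gelsolin, lies at chr9:121234127-121234832. Its log2 levels were 3.49, 3.52, 3.69 and 3.50 in CTRL, 3.17, 3.17 and 2.97 at 24 h and 2.71, 2.62 and 2.53 at 48 h (difference −0.69 ± 0.12, SE, adjusted p = 0.0289 in limma). Every HGF library lay below every CTRL library, and the 48 h libraries lay below those of 24 h. A site 13613 bp from ITGB3, the integrin beta 3 subunit (chr17:47239844-47240570), had log2 levels of 3.84, 3.86, 4.03 and 3.97 in CTRL, 3.53, 3.09 and 3.31 at 24 h and 2.99, 3.46 and 2.77 at 48 h (difference −0.73 ± 0.14, adjusted p = 0.0420 in limma). These groups did not overlap either. A site 139246 bp from KLF6, a zinc finger transcription factor (chr10:3924151-3924698), fell by 0.76 ± 0.15 on the log2 scale (adjusted p = 0.0462 in limma), with 3.79 in HGF 24 h A close to the lowest CTRL value of 3.84.

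SESN3, ANGPTL4, NOS1AP and ADARB1 were nearest to 4 more. The site 57029 bp from SESN3, a stress-induced sestrin, had log2 levels of 3.76, 3.96, 3.85 and 3.84 in CTRL, 3.11, 3.03 and 3.04 at 24 h and 3.49, 3.22 and 3.38 at 48 h (difference −0.64 ± 0.11, SE, adjusted p = 0.0263 in limma). It was lowest at 24 h. The site 8332 bp from ANGPTL4, a secreted inhibitor of lipoprotein lipase (chr19:8355434-8356275), had 3.59, 3.67, 3.79 and 3.64 in CTRL, 3.10, 3.28 and 2.93 at 24 h and 2.90, 3.00 and 2.91 at 48 h (difference −0.65 ± 0.12, adjusted p = 0.0371 in limma). At both sites all 6 HGF libraries lay below the lowest CTRL library. The site near NOS1AP, an adaptor of neuronal nitric oxide synthase, fell by 0.70 ± 0.12 (adjusted p = 0.0237 in limma) and that near ADARB1, an RNA-editing enzyme, by 0.80 ± 0.13 (adjusted p = 0.0237 in limma).

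The other lower sites were nearest to ZNF658, PI15, OR10J4, LMO3, OXGR1, RPS29, SPATA31A6, RAD52, RGS8, BIN2, HHAT, TEX36 and PLD5. At the ZNF658 site the log2 difference was −0.86 ± 0.13 (SE, adjusted p = 0.0202 in limma). That near RAD52, a recombination protein, lies in a coding exon of the gene, and that near HHAT, which palmitoylates hedgehog proteins, in one of its introns. The 3 sites that passed 0.01 at 48 h were those nearest to PI15 (log2 difference −1.16 ± 0.16, SE, adjusted p = 0.00842 in limma), ZNF658 (−1.05 ± 0.15, adjusted p = 0.00842 in limma) and TEX36 (−1.01 ± 0.15, adjusted p = 0.00889 in limma). At the TEX36 site the 24 h levels of 3.53, 3.51 and 3.24 lay just below the CTRL range of 3.54 to 3.84, and the 48 h levels of 2.70, 2.86 and 2.53 lay well below it. None of the 21 lower sites lay within 1000 bp of a protein-coding start, and 57.1% held the AP-1 consensus. The matching comparison is with the 13870 sites with a peak in all 10 libraries that also lie beyond 1000 bp. Of these, 6634 held the consensus, and whether the 21 differ from them was not tested. With promoter-proximal sites included, 32.4% of all sites with a peak in all 10 libraries held it. Each of the 21 lower sites was listed in 6 to 8 of the 8 EGF libraries and in 0 to 5 of the 6 PBS libraries. Their means were 97.6% of EGF and 38.9% of PBS libraries. Over all sites with a peak in all 10 libraries, promoter-proximal ones included, the means were 98.1% and 86.2%. The PBS libraries listed 15698 to 102221 peaks, and the part of their peak number in these counts was not tested.

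IL20RA, a receptor subunit for cytokines of the IL-20 family, held the higher site that lies inside a gene. The site at chr6:137036595-137037412 is intronic, 7204 bp from the start. Its log2 levels were 3.12, 3.05, 2.69 and 2.95 in CTRL, 3.55, 3.72 and 3.87 at 24 h and 3.63, 3.98 and 3.68 at 48 h. All 6 HGF libraries exceeded all 4 CTRL libraries (difference 0.79 ± 0.13, SE, adjusted p = 0.0237 in limma), replicates C included. The fold enrichment as deposited was 10.5, 9.55, 7.47 and 8.05 in CTRL and 13.3, 13.9, 9.65, 13.1, 17.1 and 8.19 in HGF. A peak was listed there in 6 of 6 PBS, 8 of 8 EGF, 3 of 6 OSM, 2 of 6 IFNG+EGF and 0 of 6 TGFB+EGF libraries. Over all sites with a peak in all 10 libraries the means were 86.2%, 98.1%, 82.1%, 77.1% and 48.4% of these libraries.

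Of the other 5 higher sites, 4 lie more than 500000 bp from any protein-coding start. They are nearest to DCUN1D4 (log2 difference 0.98 ± 0.15, SE, adjusted p = 0.0202 in limma), KCNJ18, with 0.98 ± 0.19 and 0.78 ± 0.13 at its 2 sites, and WSB1 (0.78 ± 0.15). The last lies 338118 bp from MKI67 (0.51 ± 0.10, adjusted p = 0.0420 in limma). Each of these 5 had a peak in every PBS and EGF library, beside means of 86.2% and 98.1% over all sites with a peak in all 10 libraries. Whether reads map uniquely at them was not tested.

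**Figure D2:**
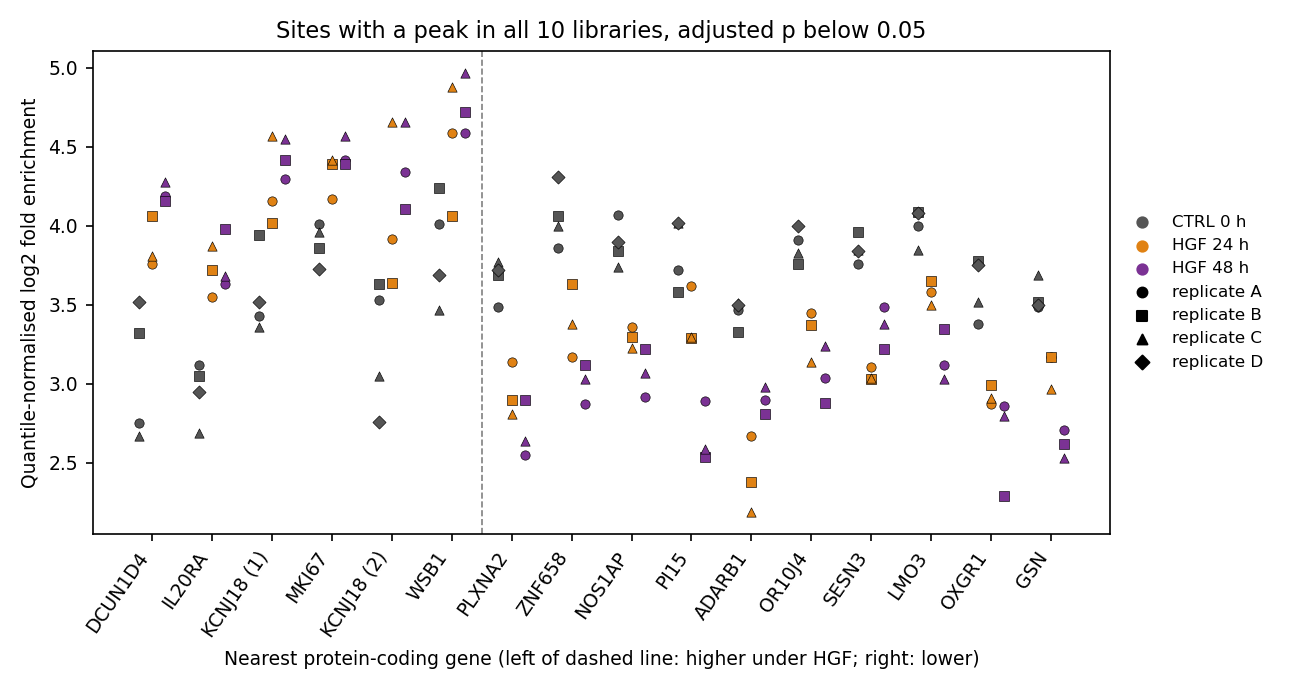
Quantile-normalised log2 fold enrichment in each of the 10 libraries at the 6 sites that were higher (left of the dashed line) and 10 of the 21 sites that were lower after HGF at an adjusted p below 0.05, each named by its nearest protein-coding start. At the IL20RA site the HGF libraries lie at 3.55 to 3.98 and the CTRL libraries at 2.69 to 3.12, and at the PLXNA2 site the HGF libraries lie at 2.55 to 3.14 and the CTRL libraries at 3.49 to 3.77.

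Over all sites with a peak in all 10 libraries the height moved by little, with a higher median at promoters than at distal or AP-1 sites. The median log2 difference was 0.01 over all, 0.067 at the 7757 promoter-proximal sites and −0.032 at the 13870 distal ones. It was −0.062 at the 6997 sites with the AP-1 consensus and 0.039 at the 14630 sites without it. Among distal sites alone it was −0.066 with and 0.003 without the consensus. Of the 1448 sites higher at an unadjusted p below 0.05 (6.70%) 623 were promoter-proximal, against 172 of the 1686 lower (7.80%) and 35.9% of all. Centring each library on its median in place of quantile normalisation turned the split of 1448 higher and 1686 lower into 1902 higher and 1440 lower. Without the replicates C the medians were 0.101 at promoter-proximal and 0.049 at distal sites, and 0.030 with and 0.090 without the AP-1 consensus, so the sign at distal and at AP-1 sites changed without the replicates C while the order of each pair of medians did not. The promoter-proximal median relative to CTRL was 0.190 and 0.094 in the replicates C and 0.020 to 0.065 in the other 4 HGF libraries. Relative to CTRL, the median at AP-1 sites was −0.146 and −0.093 in the replicates C and −0.037 to 0.002 in the other 4 HGF libraries.

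**Figure D3:**
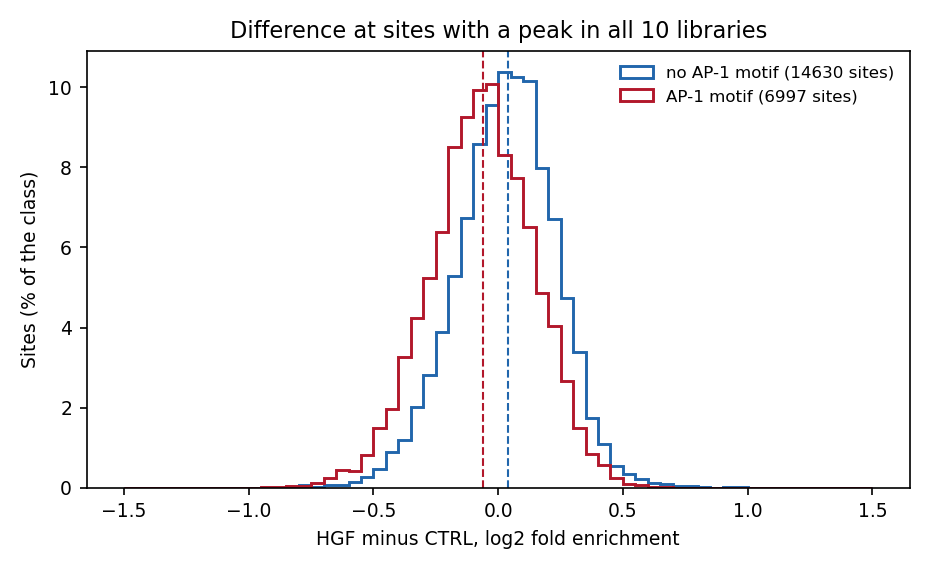
Distribution of the log2 difference in normalised fold enrichment, HGF minus CTRL, over the 6997 sites with (red) and the 14630 without (blue) the AP-1 consensus, as a percent of each class of site, with dashed lines at the medians. The 2 distributions overlap for most of their width, with medians of −0.062 and 0.039.

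Detection, whether a site held a peak at all, was compared over 104259 sites with a peak in at least 2 of the 10 libraries, of 129541 merged sites. Since peak number differs between libraries, sites were classed by how many of the 10 libraries detected them, and the share of its class that each library detected was subtracted. Among sites detected by 4 of the 10 libraries, a CTRL library detected 63.9% to 69.2%, HGF replicates A and B 25.1% to 45.4%, and the replicates C 2.87% and 1.73%. A difference in adjusted detection can therefore exceed 1 for a gained site and stays near −0.55 for a lost one. In limma 0 sites were gained and 0 lost for both times together at an adjusted p below 0.01 (0% each, 5193 with an unadjusted p below 0.05). At 24 h 6 sites were gained (0.00575%) and 0 lost, at 48 h 0 were called (5855 with an unadjusted p below 0.05), and 48 h against 24 h gave 0 (1934 with an unadjusted p below 0.05). The lowest adjusted p for both times was 0.0224, shared by every site whose detection separated the groups fully, so the threshold of 0.01 was out of reach there.

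The 6 sites gained at 24 h were each detected in 0 of 4 CTRL, 3 of 3 HGF 24 h and 0 of 3 HGF 48 h libraries (difference 1.33, adjusted p = 0.00533 in limma). One lies at chr3:99634001-99634271, 4399 bp from the start of COL8A1, a network-forming collagen chain, and its sequence with an AP-1 and a TEAD match is printed above. Its fold enrichment at 24 h was 5.60, 5.41 and 4.45. Outside the 10 libraries its peak was listed in 2 of 6 PBS, 3 of 8 EGF, 1 of 6 OSM and 2 of 6 IFNG+EGF libraries. Another lies in an intron of VTI1A, a vesicle SNARE protein (chr10:112687751-112688069), with fold enrichments of 13.6, 7.06 and 3.76. That peak was listed in 2 of 6 PBS and 2 of 8 EGF libraries as well. The other 4 are nearest to SRGAP2C (2 sites), CWH43 and ZNF254 in long stretches without protein-coding starts. The SRGAP2C sites lie 3083059 and 3375079 bp from the nearest start and had peaks in 6 and 5 of 6 PBS libraries. Whether reads map uniquely at these 4 sites was not tested. The number called at 24 h was 0 without any 1 CTRL library and without HGF 48 h A or B, and it was 30, 33 and 162 without HGF 24 h A, B and C.

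At an adjusted p below 0.05, 104 sites were gained (0.0998%) and 1655 lost (1.59%) for both times, 21 gained (0.0201%) and 1655 lost (1.59%) at 24 h, 1 gained (9.59e-04%) and 0 lost at 48 h, and 0 for 48 h against 24 h. Sites named at this looser threshold are described by their peaks and are not shown to have changed. The 1655 lost sites are exactly those with a peak in 4 of 4 CTRL and 0 of 6 HGF libraries (1.59% of sites). A peak in 0 of 4 CTRL and 6 of 6 HGF libraries was found at 3 sites (0.00288%), among them those nearest to SPATA31A6 and TPTE. The HGF libraries, and above all the replicates C, list fewer peaks, and the part of peak number in the count of lost sites was not tested. At an equal number of 33227 peaks per library, the strongest of each, 149 sites were gained and 223 lost at 0.01.

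**Figure D4:**
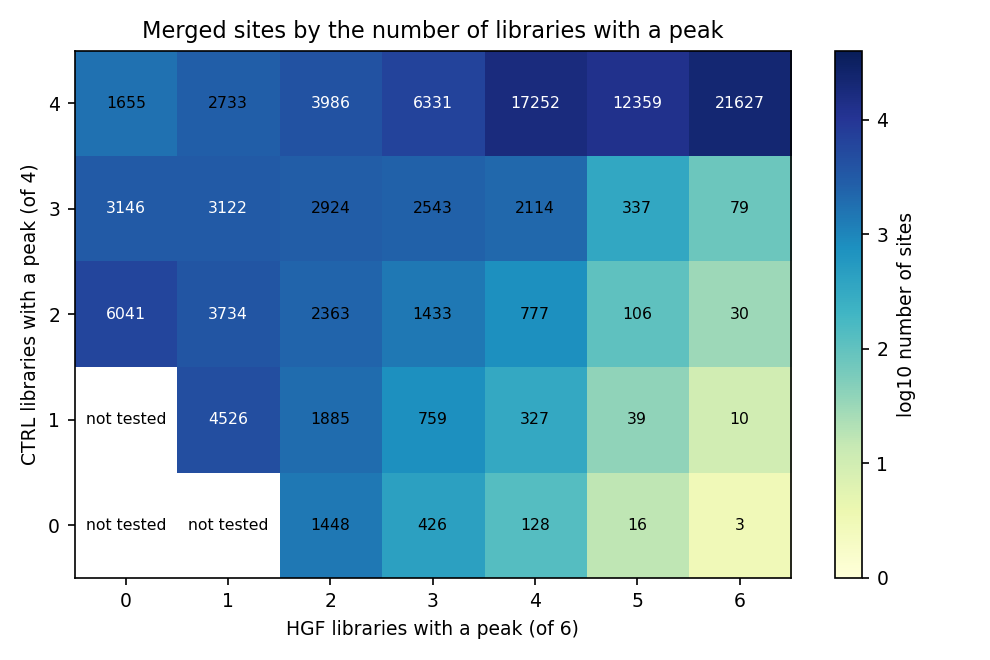
Number of the 104259 sites tested (printed in each cell, colour on a log10 scale) for each combination of CTRL libraries (0 to 4) and HGF libraries (0 to 6) with a peak. The corner of 4 CTRL and 0 HGF libraries holds 1655 sites and the corner of 0 CTRL and 6 HGF libraries holds 3.

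Of the 1655 sites with a peak in every CTRL and no HGF library, 3.69% were promoter-proximal, near the 4.44% of the 8027 sites detected by any 4 of the 10 libraries (13.6% of all sites tested). Of the same 1655, 57.5% held the AP-1 consensus, 22.6% the TEAD and 22.5% the RUNX consensus. Among the 8027 sites, 41.5% held AP-1, 16.9% TEAD and 17.4% RUNX. At the 1655 sites a mean of 4.71% of PBS and 30.4% of EGF libraries had a peak, beside 11.1% and 25.3% at the 8027 sites. No PBS library had a peak at 1222 of them (73.8%), beside 50.3% of the 8027 sites and 23.8% of all. HGF was not tested against PBS here.

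The sites with peaks in 0 CTRL and at least 5 HGF libraries numbered 19. Of these, 15 (78.9%) lie more than 500000 bp from any protein-coding start, against 5.28% of all sites tested, and none held the AP-1 consensus. Most of the 19 were also detected under other conditions, in a mean of 62.3% of PBS, 40.1% of EGF, 64.0% of OSM, 57.9% of IFNG+EGF and 66.7% of TGFB+EGF libraries. Whether reads map uniquely at the 15 far sites was not tested. The other 4 are nearest to EHBP1, ABHD6, PAK3 and UBE3A. EHBP1 links endocytic vesicles to actin. The site 8859 bp from its start (chr2:62664614-62665084) had fold enrichments of 4.04 and 4.04 in HGF 24 h A and B and of 5.72, 4.75 and 4.57 in HGF 48 h A to C, and no peak in CTRL or HGF 24 h C. It was listed in 0 of 6 PBS, 6 of 8 EGF, 0 of 6 OSM, 0 of 6 IFNG+EGF and 1 of 6 TGFB+EGF libraries. The intronic site of PAK3, a kinase that acts downstream of RAC and CDC42 (chrX:111100175-111100426), had 7.04 and 4.95 in HGF 24 h A and B and 6.74, 8.64 and 5.05 at 48 h, with peaks in 1 of 6 PBS and 5 of 8 EGF libraries. The intronic site of ABHD6, a monoacylglycerol hydrolase (chr3:58254063-58254423), had 5.48 and 5.83 in HGF 24 h A and B and 6.48, 7.55 and 6.04 at 48 h, with peaks in 4 of 6 PBS and 0 of 8 EGF libraries. At all 3 sites HGF 24 h C was the one HGF library without a peak.

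When all 42 libraries and 13 groups shared the fit, which allows the spread to be estimated from more libraries, 614 sites were gained (0.589%) and 454 lost (0.435%) at an adjusted p below 0.01 in limma for both times. The sites were built from the 10 libraries alone. The other libraries include some with few peaks, down to 3786 in TGFB+EGF 48 h B, and none was left out for quality. Of the 614 gained sites 202, and of the 454 lost sites 150, had no peak in any of the other 32 libraries. Such sites show little spread in the other groups, which lowers their p. The adjusted p-values of this fit are therefore not stronger evidence than those of the 10. The order by which sites of this fit are named was applied after the values above were seen. Among the gained sites of lowest adjusted p were those nearest to EHBP1 (difference 1.27, adjusted p = 2.23e-06 in limma) and to HS3ST1, a heparan sulfate sulfotransferase (0.97, adjusted p = 6.76e-06). Sites near SLC2A1, the glucose transporter GLUT1, and IGFBP5, a secreted binder of insulin-like growth factors, were gained as well (0.97 and adjusted p = 8.50e-05 in limma for each), with peaks in 2 of 3 libraries at each time and 1 of 6 PBS libraries. Promoter-proximal summits made up 2.28% of the gained and 4.41% of the lost sites, AP-1 matches 18.2% and 49.1%, and C/EBP matches 24.4% of the gained against 14.0% of all sites tested. The 17 sites with peaks in the 4 CTRL libraries and in none of the other 38 tied at the lowest adjusted p of the lost sites (difference −0.73, adjusted p = 9.73e-09 in limma). The 10 first by position lay nearest to LEMD1, MZT2A, ANKRD44, KY, CPN2, HS3ST1, CLIC1, TAC1, SHARPIN and GLIS3.

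AP-1 and RUNX motifs were under-represented among the detected sites of the HGF libraries. For each library, the detected sites with a motif were divided by the number its detection rates in the classes predict, and the result is given as a percent deviation. For AP-1 the deviation was 0.0493, 4.59, 3.26 and 4.03% in CTRL A to D, −2.34, −0.379 and −4.54% at 24 h and −3.52, −4.89 and −3.73% at 48 h. All 6 HGF libraries lay below all 4 CTRL libraries, with CTRL A close to HGF 24 h B. The difference of the means was −6.22 points, with the smallest p that 4 against 6 libraries allow (two-sided exact permutation p = 0.00476, adjusted p = 0.0381 over 16 motifs).

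For RUNX the deviation was 1.05, 1.96, 2.67 and 1.09% in CTRL, −1.70, 0.539 and −2.39% at 24 h and −3.11, −2.01 and −2.48% at 48 h. The groups did not overlap (difference −3.55 points, exact permutation p = 0.00476, adjusted p = 0.0381). TEAD differed by −3.13 points (exact permutation p = 0.0286, adjusted p = 0.152), with 5 of 6 HGF libraries below CTRL. The adjusted p of the other 13 motifs was at least 0.352. STAT and IRF matches were high in the replicates C alone, at 15.5% and 16.5% for STAT and 11.6% and 9.34% for IRF. Without both replicates C the AP-1 difference was −5.75 and the RUNX difference −3.22 points (exact permutation p = 0.0286 each, adjusted p = 0.114, where 4 against 4 libraries cannot go lower for a single motif). That of C/EBP was then 5.16 points, at the same p and adjusted p. With the classes counted over all 42 libraries the mean AP-1 deviation was 2.63% in CTRL, −4.44% and −6.27% in HGF at 24 h and 48 h, −5.34% and −16.8% in PBS, 5.79% and −3.45% in EGF and 5.59% and −3.20% in OSM. These are levels side by side, and the differences between HGF and the other ligands were not tested.

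**Figure D5:**
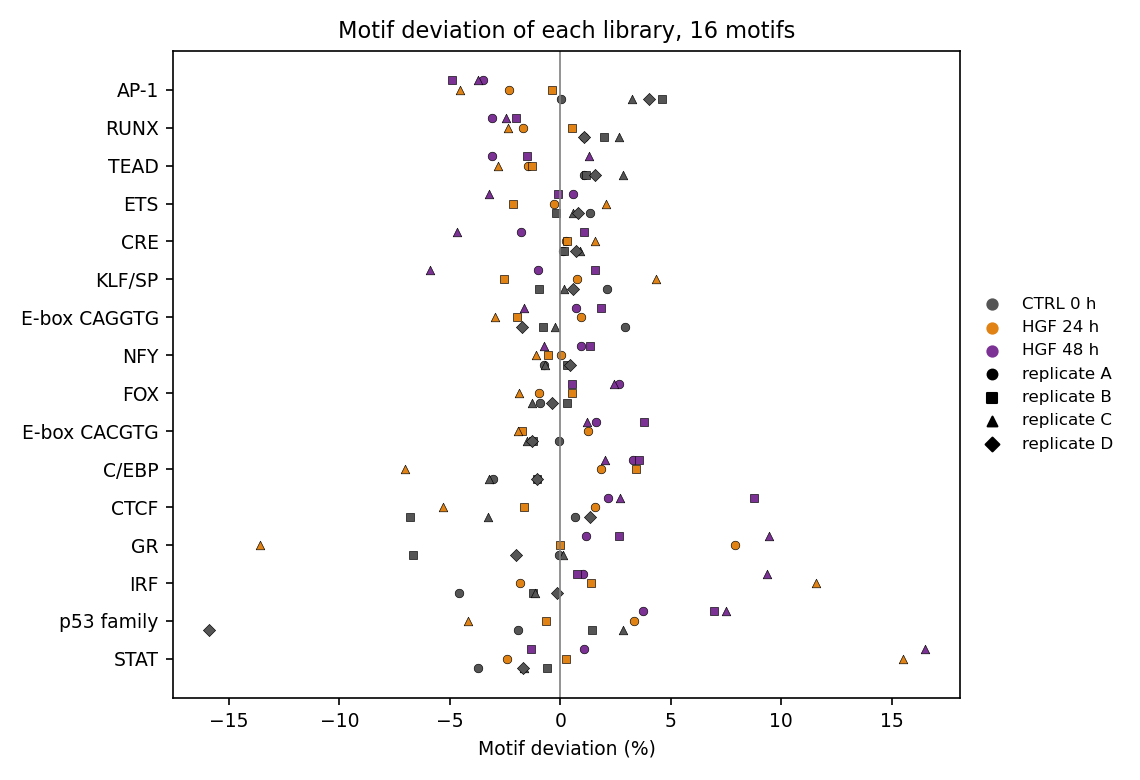
Deviation of motif content, in percent, in each of the 10 libraries for the 16 motifs tested, coloured by group (CTRL 0 h, HGF 24 h, HGF 48 h) and shaped by replicate. The HGF libraries lie below the CTRL libraries for AP-1 and RUNX, and the replicates C stand out for STAT and IRF.

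At the receptor and its ligand the accessible sites were mostly shared. The promoter of MET had a peak in all 10 libraries (log2 difference in height 0.22 ± 0.13, SE, adjusted p = 0.430 in limma), with fold enrichments of 15.9, 12.7, 11.8 and 10.4 in CTRL and of 15.8, 11.8, 10.8, 11.8, 12.6 and 8.70 in HGF. An intronic site 7456 bp into MET had a log2 difference of 0.29 ± 0.11 (adjusted p = 0.262 in limma). Another MET intron site at chr7:116710950-116711388 had peaks in HGF 24 h A and B (6.06 and 4.06) and in no CTRL library, and was gained in the fit over all 42 libraries (difference 0.58, adjusted p = 0.00971 in limma) but not in the fit of the 10 (adjusted p = 0.449). HGF had no promoter peak in any of the 10 libraries. An intronic HGF site had peaks in 4 of 4 CTRL, 1 of 3 HGF 24 h and 0 of 3 HGF 48 h libraries (adjusted detection difference −0.38, adjusted p = 0.769 in limma).

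Of the 223 tested sites within 50 kb of the 27 genes of HGF and MET signalling, 4 were lost (1.79%) and 0 gained at an adjusted p below 0.05, beside 1.59% lost and 0.0998% gained of all sites. The 4 lay within 50 kb of starts of SPINT2, GRB2, SHC1 and CD44, a co-receptor of MET. The site 29618 bp from SHC1 lies in an intron of ZBTB7B, its nearest gene. The SPINT2 site (chr19:38266971-38267585, intronic) had fold enrichments of 3.92, 2.79, 5.01 and 3.28 in CTRL and no peak in HGF, PBS, EGF, OSM or TGFB+EGF libraries, with 2 of 6 in IFNG+EGF. In the fit over all 42 libraries the SPINT2 site was lost (difference −0.66, adjusted p = 0.00850 in limma). Sites at MET and PIK3R1, a regulatory subunit of PI3 kinase, were gained there. That fit holds the same CTRL and HGF libraries, so it is not an independent test. The median log2 difference in height of the list was 0.02 over 68 sites, beside 0.01 over all.

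Of the 219 sites within 50 kb of 23 growth factor response genes, 5 were lost (2.28%, beside 1.59% of all sites) and 0 gained at 0.05. They lay within 50 kb of DUSP5, a MAP kinase phosphatase, the AP-1 subunits FOSL1 and JUN, IER3 and the EGF receptor ligand TGFA. The sites 38704 bp from DUSP5 and 11461 bp from FOSL1 were nearest to other genes, SMC3 and C11orf68. The JUN site lies 21008 bp from the gene and had fold enrichments of 7.29, 7.03, 5.72 and 3.95 in CTRL and no peak in HGF. None of the 5 passed 0.01 over all 42 libraries, and the median log2 difference in height of the list was 0.10 over 79 sites.

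Of the 285 sites within 50 kb of 26 genes of motility, matrix and proteolysis, 3 were lost (1.05%, beside 1.59% of all sites) and 0 gained at 0.05. Of these, 1 lay 9605 bp from VIM, a mesenchymal intermediate filament. The other 2 lay 41397 and 36484 bp from LAMB3, a chain of an epithelial laminin, in introns of CAMK1G and HSD11B1, their nearest genes. In height 11 of 73 sites of this list were higher and 1 lower at an unadjusted p below 0.05, beside 6.70% higher and 7.80% lower of all sites. The median was 0.11, and none passed the adjusted threshold (lowest adjusted p = 0.0549 in limma). By the same count, 10 were higher and 3 lower of 79 sites of growth factor response, and 7 and 4 of 68 of HGF and MET signalling. It was 5 and 3 of 37 for epithelial state, 1 and 2 of 32 for cell cycle and 4 and 1 of 30 for receptors. Of the 26 genes, 14 had a promoter peak in all 10 libraries, 1 in none, 11 in a lower share of HGF than of CTRL libraries and 0 in a higher share. This tally is not adjusted for the lower peak number of the HGF libraries, and it was not taken over all genes. The other lists leaned the same way. A lower and a higher share were found at 6 and 1 of 23 growth factor response genes and 6 and 0 of 17 epithelial state genes. They were found at 2 and 1 of 27 HGF and MET genes, 2 and 0 of 15 cell cycle genes and 1 and 0 of 12 receptors. Promoter peaks of FN1, fibronectin, were listed in 4 of 4 CTRL, 2 of 3 HGF 24 h and 0 of 3 HGF 48 h libraries, and those of PLAUR, the urokinase receptor, in 4, 2 and 0. Those of the stromelysins MMP3 and MMP10 were listed in 3, 0 and 0 and in 4, 1 and 1 libraries. No site at these 4 genes passed 0.05 in either direction.

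Of the 156 sites within 50 kb of 17 genes of epithelial state, 2 were lost at 0.05 (1.28%, beside 1.59% of all sites) and 0 gained. They lay in an intron of the transcription factor KLF5 and 28039 bp from the keratin KRT19, where KRT13 was the nearest gene. Of the 104 sites at 15 cell cycle genes, 2 were gained at 0.05 (1.92%, beside 0.0998% of all sites) and 0 lost (beside 1.59%). The one 19992 bp from CCND1, the cyclin of the G1 phase (chr11:69620861-69621253), had fold enrichments of 5.64, 6.21 and 3.86 at 24 h and 5.52 in HGF 48 h B, and no peak in CTRL (difference 1.11, adjusted p = 0.0224 in limma, and 1.00 with an adjusted p of 4.25e-04 over all 42 libraries). The other lies in an intron of MKI67, the marker of proliferating cells (chr10:128116534-128116790), with peaks in 2 of 3 libraries at each time and in no CTRL library (adjusted p = 0.0358 in limma, and 1.78e-04 over all 42 libraries). For both sites the fit over all 42 libraries holds the same CTRL and HGF libraries and is not an independent test. Of the 115 sites at 12 receptors of the other ligands and medium components, 0 were called in either direction at 0.05, beside 0.0998% gained and 1.59% lost of all sites. The median log2 difference in height of these 3 lists was 0.08, 0.11 and 0.07.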

How the data were processed

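The deposited narrowPeak lists of 42 MCF10A ATAC-seq libraries were used, 10 of them for the comparison. The paper left out ATAC-seq samples with a low fraction of reads in peaks before its own analysis. Here no library was left out for quality, and the counts of peaks under other conditions include any such library. Per the labels, reads were trimmed with Trimmomatic 0.36.5, aligned with Bowtie2 2.3.4.1 to hg38, cleaned of duplicates with Picard, and the authors ran the peak caller MACS2 2.1.1.20160309.5 on single libraries at a q of 0.01. deepTools 3.1.2 is also named. The deposited columns hold positions, a score (10 times the −log10 q), the fold enrichment ratio at the summit, and the −log10 of p and q. No value averaged over libraries was used.

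Peaks on the primary chromosomes of the 10 libraries were merged where they overlapped by at least 1 bp, and sites in at least 2 libraries were tested. Adjusted detection and log2 fold enrichment (strongest peak of a site, quantile normalised, no pseudocount) were fitted in limma 3.58.1 (R 4.3.3) with CTRL 0 h, HGF 24 h and HGF 48 h as groups. P-values were adjusted by Benjamini-Hochberg over all sites, and a call needed an adjusted p under 0.01 with an absolute difference of 0.5 or more. Single values per library were compared by two-sided exact permutation tests. Starts of 20007 protein-coding genes came from GENCODE release 44 and bases from hg38. Python 3.11.15, numpy 2.4.6, pandas 2.3.3 and scipy 1.17.1 were used. Scripts were tested on simulated data.

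Named sites are the 10 gained and 10 lost (5 for each time, 5 for height) of lowest adjusted p, and called sites within 50 kb of listed genes. Since both times together gave no call, the same order was applied at an adjusted p of 0.05 and to the fit of all 42 libraries after the values were seen. Some sites that this order names are not reported here. Members and gene lists were chosen with earlier results of these data known. Alternatives covered raw detection, equal peak number, stricter peaks, site filters, merging overlap, normalisation, lane, the replicate letter as a block, and leaving out libraries. The letters were not taken to pair the libraries, since the labels do not say that they do. Deviations of same-letter libraries correlated at −0.277 to 0.0687. Adjusted detection sums to a fixed value over the libraries at each site, which lowers such correlations, so they cannot show that letters have no effect. The 2 HGF replicates C, which list the fewest peaks, shared 59.8% of the sites either detected, against 34.5% to 42.7% with other HGF libraries. The files give no depth, so no counting interval is given, and the precision rests on the number of libraries.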

Additional observations from a re-analysis of the deposited data

Results flagged for a closer look

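Among 48 values tested for a CTRL library far from the other 3, 2 stood apart, and chance flags about 1 in 20 such groups. At the site near GSN, CTRL C had a log2 fold enrichment of 3.69 against 3.49 to 3.52 in the other CTRL libraries. At the site near RGS8, CTRL D had 3.87 against 3.54 to 3.56. Both sites lay lower in all 6 HGF libraries than in any CTRL library.

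Peaks outside the primary chromosomes were used in no comparison. They made up 2.58% of the peaks of HGF 24 h C, above the CTRL range of 2.19% to 2.48%. That library is one of the 2 with the fewest peaks.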

How the results depend on the processing

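No named site, peak number, promoter-proximal share, AP-1 or RUNX difference changed sign under an alternative. Of the measures that did not pass, the differences for CRE, ETS, KLF/SP and CTCF changed sign at equal peak number, to 10.6, 5.78, 8.21 and −0.0615 points. Without the replicates C those for E-box CAGGTG and background coverage became 0.36 and 4.60e-04. Without 1 library they ran from −1.05 to 0.349 and from −0.0744 to 2.75e-04, and that for NFY from −0.215 to 0.433. The count of sites called at 0.01 in the detection fit depended on how detection was scaled and on the libraries. For both times, 24 h, 48 h, and 48 h against 24 h it was 0, 6, 0 and 0. It became 1665, 1670, 1713 and 67 with raw detection, 372, 315, 421 and 152 with equal peak number, and 1068, 381, 534 and 52 over all 42 libraries. With array weights it became 4238, 6134, 9656 and 21478, where HGF 24 h A and HGF 48 h B took weights of 108 and 33.6 and the estimate of the weights stopped before it converged. Without both HGF replicates C, an alternative added after seeing the data as was leaving out constant sites, it became 2149, 2217, 3195 and 1898. Stricter peaks gave 2 at 48 h, lane as a term gave 0 at 24 h, and a threshold of 0.05 gave 1759, 1676 and 1. Leaving out 1 library gave 0 to 1845, 0 to 162, 0 to 211 and 0 to 220, the highest without HGF 24 h C for the first 2 and without HGF 48 h C for the others. For both times it was 36, 1845 and 224 without HGF 24 h A, HGF 24 h C and HGF 48 h C. At 48 h it was 6 and 9 without HGF 24 h A and C and 8, 10 and 211 without HGF 48 h A, B and C, and 48 h against 24 h gave 30, 171 and 220 without HGF 24 h A, HGF 24 h C and HGF 48 h C. The cause was not tested.

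For peak height the count of 0 became 1 under the replicate block, 4 with lane as a term, 40 without the replicates C, with 50360 in place of 21627 sites tested, and 27 at 0.05, and 0 to 1 without 1 library (1 without CTRL D). The peak number difference was −37217 on the linear scale (exact permutation p = 0.0286) and −0.254 to −0.158 without 1 library. The promoter-proximal difference was 4.03 points at equal peak number (exact permutation p = 0.0381) and 4.09 to 6.66 without 1 library. Both stood at −0.0838 and 2.09 without the replicates C. The count of 2 motifs became 0 with a 50 bp window, at equal peak number, without the replicates C and without any 1 library (0 to 0). Fewer libraries raise the smallest p that a permutation can give, and without 1 library the differences were −7.04 to −5.55 points for AP-1 and −3.87 to −3.21 for RUNX. At equal peak number the AP-1 difference was −13.0 points (exact permutation adjusted p = 0.0571) and the RUNX difference −8.62 (adjusted p = 0.0508).

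With the replicate letter as a replicate block the counts of sites were 2, 2, 2 and 0, the peak number difference of −0.218 and the promoter difference of 5.74 each had an exact permutation p of 0.0370, the smallest that 27 arrangements allow, and 0 motifs passed. Each letter carries 1 preparation number in the file names, and both low HGF libraries carry that of C, but the labels do not say what it marks. Depth cannot be read from peak lists, so a site without a peak is one not detected and not one shown to be closed.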
